A study of Mus musculus with 5 samples.

Results

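Molecular chaperones and their cochaperones were examined in 5 samples of mouse bone marrow cells, described in the labels as FLT3+/CD11b+ progenitors of dendritic cells. Members were all probe sets whose single gene symbol began with Hspa, Hspb, Hspd, Hspe, Hsph, Hsp90, Dnaja, Dnajb, Dnajc or Fkbp, was Cct followed by a number, or was Tcp1. This gave 91 probe sets of 67 genes, out of 12422 probe sets and 8251 named genes on the array. The rule reads gene symbols only. All 5 samples share the same source and sort markers, FLT3 being a growth factor receptor of early blood progenitors and CD11b a myeloid integrin chain. The labels name no strain, age, treatment, batch or number of animals, so there was 1 group, no contrast between conditions, and the spread between samples may be technical. Signal in bulk RNA cannot tell fewer cells of a type from less RNA per cell.

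Chaperones bind unfolded or partly folded proteins and help them reach or keep their native form. HSP70 proteins do so in cycles of ATP hydrolysis that J-domain proteins (Dnaj genes) start and nucleotide exchange factors reset, HSP90 acts on near-native clients such as kinases and steroid receptors, and chaperonins enclose substrates in a ring. Some members are made at all times, while others are induced by heat through the factor HSF1 or by unfolded protein in the endoplasmic reticulum (ER), and blood progenitors that divide and fill granules make large amounts of protein.

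Each sample was measured on 1 array, and values are array intensities scaled so that every array had a median of 103.4, called signal below. Means carry the SD over n = 5 samples. Values for the 5 samples are always given in the order of samples 1 to 5, which has no meaning beyond the label. Where a gene had several probe sets, the one with the highest mean on the log2 scale stands for it. Probe sets bind with different strength, so signals are compared between samples for 1 gene and not between genes. A gene counts as above the limit when its signal exceeded the array median on all 5 arrays, which is a rank within an array and no proof that a transcript is present or absent. Both sort markers were above the limit in all samples, Flt3 at 571, 1212, 353, 1268 and 318 and Itgam at 789, 546, 223, 343 and 486. Of the further marker lists, 11 of 12 neutrophil granule genes, 5 of 8 macrophage genes, 1 of 7 B cell genes, 0 of 7 T and NK cell genes and 0 of 5 erythroid genes were above it. Whether this signal came from the sorted cells or from other cells was not tested. Of all 8251 named genes, 44.5% were above it, a share to set beside each later count of genes above the limit. The ratio of 3' to 5' signal of the transferrin receptor control, a sign of RNA or labelling quality, was 3.14, 3.77, 16.7, 8.63 and 5.16. That of the Gapdh control was 0.896, 1.06, 4.52, 3.42 and 2.01 and that of the actin control 1.08, 3.003, 4.15, 5.198 and 2.55. All 3 were lowest in sample 1, and the first 2 were highest in sample 3.

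Most chaperone genes had signal above the limit in every sample. Of the 91 probe sets, 57 were above it on all 5 arrays, which is 62.6%, beside 36.7% of all 12422 probe sets. Counted by gene, 45 of 67 were above it (67.2%), beside 44.5% of all 8251 named genes. A further 15 genes were above it on 1 to 4 arrays and 7 on none. By compartment, 31 of 47 genes of cytosol and nucleus, 8 of 11 of the ER and 6 of 7 of mitochondria were above it on all arrays. By mode of control, all 19 constitutive genes, 8 of 12 heat inducible genes and 7 of 8 genes induced by ER stress were above it. These lists overlap with the compartments and were not tested against each other. They were picked by hand with earlier results of these data known, and they leave out many members. Among those left out, Dnajb2, Dnajc11, Dnajc17 and Dnajc21 were not above the limit, while Dnajb6, Dnajc2 and Dnajc9 were. The share of each list thus depends on which genes were put in it.

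**Figure D1:**
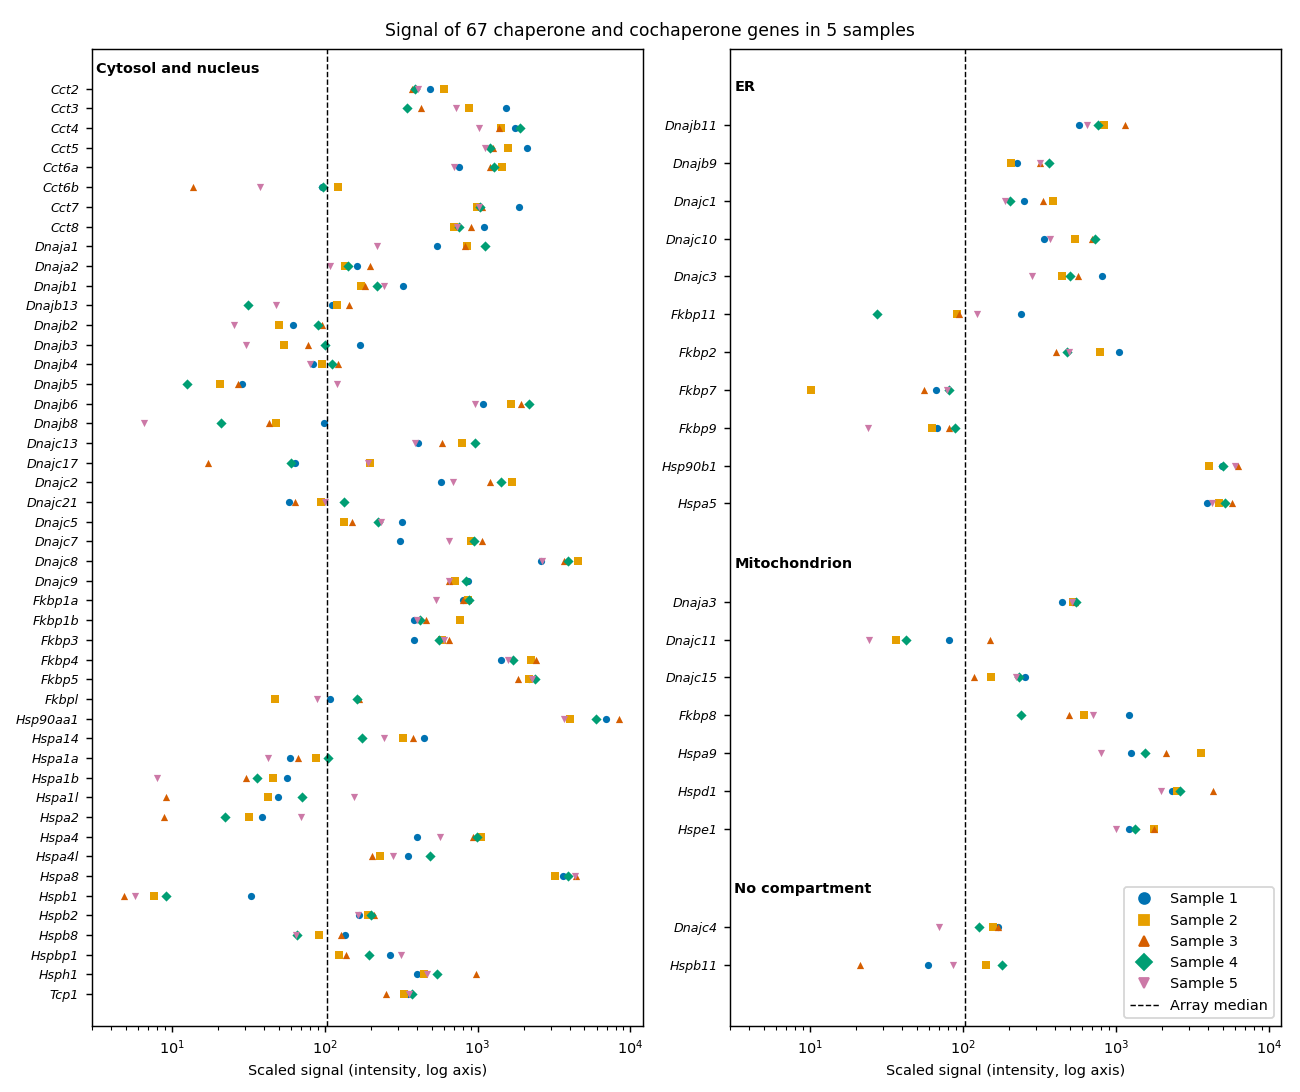
Scaled signal (log axis) of each of the 67 genes in each of the 5 samples, grouped by compartment. The dashed line is the array median of 103.4, and symbols mark samples. Symbols of 45 genes lie wholly to the right of the line, while those of Hspa1b, Hspa2, Hspb1, Dnajb2, Dnajb8, Fkbp7 and Fkbp9 lie wholly to the left. Distances between rows carry no meaning.

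Among cytosolic HSP70 genes, the constitutive form Hspa8 was above the limit in every sample, while Hspa1a and Hspa1b, made after heat or other stress, were not. Hspa8, the constitutive HSP70 (HSC70), had signals of 3634, 3226, 4395, 3930.2 and 4316, with a mean of 3900.2 ± 486. All samples lay close together, the highest being 1.36 times the lowest. The inducible genes Hspa1a and Hspa1b encode near-identical HSP70 proteins, so their probe sets may share transcripts. Hspa1a had 59.6, 88.2, 66.6, 106 and 42.4, above the array median in sample 4 only. Hspa1b had 56.8, 45.8, 30.8, 36.1 and 8.02, below it in all 5 samples. Hspa1l and Hspa2 are HSP70 genes best known from testis. Hspa1l had 49.9, 42.7, 9.14, 70.6 and 156, above the median in sample 5 only, and Hspa2 had 38.7, 32.1, 8.88, 22.2 and 69.7, below it throughout.

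The HSP110 genes, which encode nucleotide exchange factors for HSP70, were all above the limit. Hsph1, which is heat inducible, had 404, 449.6, 979.8, 541 and 468. Sample 3 was the highest, and the other samples lay between 404 and 541. Hspa4, a constitutive relative, had 402, 1053, 928, 999 and 566, lowest in sample 1. Hspa4l, a heat inducible relative, had 349, 229, 205, 492 and 278, highest in sample 4 and lowest in sample 3, so the 3 genes did not share an order of samples. Hspbp1, a further exchange factor, had 268, 124, 138, 194 and 316. Hspa14, which works at the ribosome with the J-domain protein Dnajc2, had 443, 327, 378, 177 and 244. Dnajc2 itself had 579, 1669.7, 1202, 1429 and 688 and was lowest in sample 1, where Hspa14 was highest.

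A heat shock element, the HSF1 binding motif, was searched as alternating triplets (GAA, TTC, GAA) with 2 free bases between them, on both strands, in windows of 250 bases before to 50 after each gene's start in RefSeq (build GRCm38.p6). Such windows existed for 59 of the 67 genes. The motif was found in 4 of them (6.78%), namely Hspd1, Hspe1, Hsph1 and Dnajb6, and in 179 of 27025 genes overall (0.662%). Of the heat inducible genes with a window, 3 of 11 held it. In both counts Hspd1 and Hspe1 enter separately, although they share the same stretch, described below. A match describes letters only, and no match says nothing about the factor. Hsph1 has several annotated starts, and the motif lay 15 to 27 bases after the nearer one, with the start counted as 0. It is shown here to place it downstream of the start, with 8 flanking bases on each side (chr5:149636280-149636308, minus strand, motif in capitals).
Hsph1: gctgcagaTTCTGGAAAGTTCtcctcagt

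The cytosolic HSP90 gene Hsp90aa1 and its partner genes Fkbp4 and Fkbp5 were above the limit in every sample. Hsp90aa1, the stress inducible cytosolic HSP90, had 6890.0, 4024, 8358, 5977 and 3695, a mean of 5789 ± 1959. Sample 3 was highest and sample 5 lowest, a ratio of 2.26. The constitutive gene Hsp90ab1 was not analysed here. Fkbp4 encodes FKBP52, a prolyl isomerase that joins HSP90 and steroid receptors, and had 1426, 2244, 2409, 1703 and 1583. Fkbp5 encodes FKBP51, which restrains the glucocorticoid receptor and is itself induced by glucocorticoids. It had 2185, 2164, 1836, 2383 and 2286, a mean of 2171 ± 206 with an SD of 0.14 on the log2 scale, and samples differed little. Fkbpl, another HSP90 binding relative, had 109, 47.2, 168, 162 and 89.3 and was above the median in samples 1, 3 and 4.

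Of the other cofactors of HSP70 and HSP90 and the HSF genes, 11 of 18 measured genes were above the limit. Of the 14 that entered the test for variance described below, 0 were called. They included Stip1, which bridges HSP70 and HSP90, at 442, 241, 282, 126 and 467, and Cdc37, which brings kinases to HSP90, at 1268, 593, 599, 556 and 1131. St13, which stabilises the substrate-bound state of HSP70, had 529, 438, 517, 549 and 420.3. Bag3, an HSF1 target that links HSP70 to autophagy, had 63.4, 844, 351, 239 and 130.1. Bag3 was highest in sample 2 and thus did not share the order of Hsp90aa1 or Hsph1. Hsf2, a heat shock factor gene, was below the median in all 5 samples, as were Hsf4 and the collagen chaperone gene Serpinh1.

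J-domain genes were above the limit more often in some subfamilies than in others, a difference that was not tested. All 3 Dnaja genes, 4 of 10 Dnajb genes and 10 of 14 Dnajc genes were above the limit. Dnajb1, the main heat inducible partner of HSP70 in the cytosol, had 327, 173, 183, 220.2 and 246, highest in sample 1. Dnaja1, a farnesylated partner that is also heat inducible, had 542, 859, 822, 1113 and 221. Its low value in sample 5 gave the largest spread of any member past the filter on signal, with an SD of 0.92 on the log2 scale. Dnaja2, its constitutive relative, had 162, 137, 198, 142 and 109. Dnajb4, a heat inducible relative of Dnajb1, had 84.4, 95.7, 123, 112 and 80.7 and was above the median in samples 3 and 4.

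Dnajb6, known for keeping polyglutamine proteins from aggregating, had 1093, 1647, 1933, 2177 and 958. Among the Dnajc genes above the limit were the following. Dnajc7, which binds HSP70 and HSP90 through its TPR repeats, had 309, 903, 1070.5, 954 and 646, lowest in sample 1. Dnajc8, a protein bound to the spliceosome, had 2617, 4516, 3679, 3902 and 2656. Dnajc9, a histone chaperone partner, had 872, 717, 648, 841 and 649, with an SD of 0.20 on the log2 scale. Dnajc13, an endosomal protein that drives clathrin release, had 406, 795, 589, 967 and 390.1. Dnajc5, the cysteine string protein of secretory vesicles, had 321, 134, 152, 224 and 235, lowest in sample 2.

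Several J-domain genes, some of them best known from testis, sperm or neurons, were not above the limit on all arrays. Dnajb3 and Dnajb8 of testis were above the median in 1 and 0 samples, and Dnajb13 of sperm flagella in 3. Dnajb2, a form enriched in neurons, was below it in all samples at 62.4, 49.9, 96.4, 90.7 and 25.5, and Dnajb5 was above it in sample 5 only. Dnajc17 and Dnajc21, which act in splicing and in ribosome assembly, were above it in 2 and 1 samples. Dnajc4 was above it in 4. The name of Hspb11 places it among members, but it encodes a subunit of intraflagellar transport and was above the median in 2 samples.

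Small heat shock proteins hold unfolded proteins without ATP, and 1 of their 3 genes here was above the limit in every sample. Hspb1 encodes HSP27 and had 33.1, 7.68, 4.84, 9.18 and 5.73, far below the median in every sample. Hspb8, a partner of Bag3, had 137, 92.5, 129, 66.2 and 65.0. Hspb2, a muscle form, was above the limit by one probe set at 169, 193, 210.2, 199.8 and 165, while its other probe set had 37.6, 9.67, 50.8, 18.7 and 28.9. Cryab, a relative in the list of cofactors, was above the median in 1 sample.

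The chaperonin CCT, a ring of related subunits that folds actin and tubulin, was above the limit for 8 of 9 genes. Cct7 had 1855, 994, 1075, 1032 and 1019, with sample 1 apart from the others, which lay between 994 and 1075. Cct5 had 2098, 1583, 1255, 1212 and 1117 and Cct8 1100.4, 704, 913, 761 and 738, both again highest in sample 1. Cct2 had 486, 605, 372, 389 and 408 and Cct6a 754, 1439, 1200.2, 1290.4 and 699, both highest in sample 2. Cct4 had 1768, 1422, 1387, 1899.9 and 1021, highest in sample 4, and Tcp1, the first subunit, had 353, 329, 254, 374 and 356, lowest in sample 3. The exception was Cct6b, a testis form of Cct6a, at 95.8, 122, 13.7, 97.2 and 37.5.

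CCT genes lay mostly higher in sample 1 and mostly lower in samples 3, 4 and 5 than the median of other probe sets, as a description with no test. The relative deviation of a gene is its log2 signal in a sample minus its mean over 5 samples, minus the median of the same over all 5814 probe sets past the filter on signal. Its median over 8 CCT genes was 0.38, 0.01, -0.14, -0.33 and -0.09. In sample 1, 7 of 8 genes lay higher than that background, while in each of samples 3, 4 and 5, 6 of 8 lay lower. When the processing was varied, the median kept its sign in samples 1 and 4. It did not in sample 3 (-0.22 to 0.05) or sample 5 (-0.18 to 0.03). Cct3 differed most, at 1543, 881, 429, 345 and 723 by the probe set that stands for it. Its other probe sets had 717, 526, 686, 517 and 612 in one case and 248, 286, 537, 296 and 478 in the other, so the order of samples depended on the probe set. Sample 1 had the lowest ratio of 3' to 5' signal for all 3 controls, and the part of that in the CCT values was not tested. Among prefoldin and other partners of CCT, 7 of 9 genes were above the limit, with relative deviations of 0.01, 0.33, -0.05, -0.32 and 0.03, highest in sample 2.

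Of the 11 ER members, 8 were above the limit in every sample. Hspa5, which encodes BiP, the HSP70 of the ER, had 3954, 4701, 5744, 5159 and 4257, a mean of 4763 ± 713. Hsp90b1, which encodes GRP94, the HSP90 of the ER needed for integrins and Toll-like receptors, had 4938, 4066, 6303, 4983 and 6008, a mean of 5259.5 ± 902. Both signals were highest in sample 3, where their relative deviations were 0.29 and 0.28 log2 units, although Hsp90b1 reached 0.29 in sample 5. Dnajb11, a BiP partner that binds nascent chains, had 573, 839.7, 1143, 764 and 642, also highest in sample 3. Dnajb9, a BiP partner in ER-associated degradation, had 224, 204, 317, 364 and 317. Dnajc3 encodes P58IPK, a luminal BiP partner, and had 815, 442, 563, 499 and 284, highest in sample 1 by this probe set. Dnajc10, an ER disulfide reductase, had 338, 540.4, 702, 728 and 370.3, highest in samples 3 and 4, and Dnajc1, a membrane J-domain protein at the translocon, had 252, 386, 334, 203 and 188. Fkbp2, an ER prolyl isomerase, had 1046, 789.8, 403, 478 and 493 and thus ran the other way, with sample 3 lowest. Fkbp11, known from secretory cells, was above the median in samples 1 and 5 at 239, 91.3, 94.0, 27.5 and 124. The ER isomerase genes Fkbp7 and Fkbp9 were below it in all samples.

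The ER stress response element was searched as CCAAT and CCACG with 9 free bases between them, on both strands in the same windows. It was found in 3 of 59 member genes (5.08%), Hspa5, Hsp90b1 and Dnajc3, and in 37 of 27025 genes overall (0.137%). All 3 were in the list induced by ER stress, of which 8 genes had a window. The 250 bases before the start of each are shown with the motif in capitals because these are the members of that list whose windows carry it. They are chr2:34771840-34772089 on the plus strand, chr10:86705445-86705694 on the minus strand and chr14:118937682-118937931 on the plus strand. Hsp90b1 held 2 copies, 1 in each orientation. The list came from textbook knowledge and the windows from the genome, so the match of motif and list is no result of the arrays.
Hspa5: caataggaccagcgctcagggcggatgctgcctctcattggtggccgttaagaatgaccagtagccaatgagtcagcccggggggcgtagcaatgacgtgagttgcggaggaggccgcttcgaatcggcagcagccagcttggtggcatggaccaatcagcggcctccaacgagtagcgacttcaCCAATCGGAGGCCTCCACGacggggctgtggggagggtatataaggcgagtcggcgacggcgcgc
Hsp90b1: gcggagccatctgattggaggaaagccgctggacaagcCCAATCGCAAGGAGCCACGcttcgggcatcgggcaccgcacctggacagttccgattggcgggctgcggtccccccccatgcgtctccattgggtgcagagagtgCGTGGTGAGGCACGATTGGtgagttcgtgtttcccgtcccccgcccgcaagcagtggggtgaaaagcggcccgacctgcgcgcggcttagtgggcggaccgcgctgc
Dnajc3: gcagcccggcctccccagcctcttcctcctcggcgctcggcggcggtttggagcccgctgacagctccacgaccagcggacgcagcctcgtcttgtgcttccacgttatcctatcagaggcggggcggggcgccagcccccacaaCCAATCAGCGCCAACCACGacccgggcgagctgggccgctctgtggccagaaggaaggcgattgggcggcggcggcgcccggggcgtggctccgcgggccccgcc

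Other genes of ER folding and the unfolded protein response were above the limit for 14 of 19 measured genes, and of the 16 that passed the filter on signal and were tested for variance, 0 were called. Xbp1, a transcription factor of this response, had 2058, 1089.9, 2081, 1485 and 1903, lowest in sample 2. Atf4, the factor translated under stress, had 4638, 4168, 1771, 3193 and 2462, lowest in sample 3. Ddit3, the factor CHOP, had 242, 632, 123, 234 and 209.9 and was highest in sample 2. Pdia6, a disulfide isomerase, had 1438, 592, 263, 171 and 940.0 and Pdia3, its relative of glycoprotein folding, 985, 445, 1840.5, 2277 and 1920.1, with opposite orders of samples 1 and 4. The list's median relative deviation in sample 3 was 0.02, beside 0.28 for the chaperone genes induced by ER stress. The lectin chaperone gene Calr and the HSP70 relative Hyou1 were below the median in all samples.

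Mitochondrial chaperone genes were above the limit on all arrays except Dnajc11. Hspd1 encodes HSP60 and Hspe1 encodes HSP10, the ring and lid of the mitochondrial chaperonin. Hspd1 had 2333, 2496, 4292, 2632 and 1968, with sample 3 apart from the others, which lay between 1968 and 2632. Hspe1 had 1222, 1777, 1763, 1339.9 and 1002, where samples 2 and 3 were nearly equal. Hspa9 encodes mortalin, the HSP70 of the matrix that pulls proteins in, and had 1254, 3584, 2132, 1559 and 804. Sample 2 was 4.46 times sample 5, and the other samples lay between. Dnaja3, its J-domain partner, had 446, 525, 543, 548 and 515, the smallest spread of all members past the filter, with an SD of 0.12 on the log2 scale.

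Hspd1 and Hspe1 lie head to head on chromosome 1, with annotated starts 216 bases apart, and their windows share 285 bases. The heat shock element occurred there as 2 overlapping copies, 1 in each orientation. The 250 bases before the start of Hspd1 (chr1:55087933-55088182, minus strand) are shown with both copies in capitals.
Hspd1: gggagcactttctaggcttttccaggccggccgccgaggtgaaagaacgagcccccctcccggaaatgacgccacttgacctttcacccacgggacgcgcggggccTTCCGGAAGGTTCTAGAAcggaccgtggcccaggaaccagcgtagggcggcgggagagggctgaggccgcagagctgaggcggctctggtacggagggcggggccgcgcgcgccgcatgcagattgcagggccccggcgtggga

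Sample orders differed among further mitochondrial members. Fkbp8, an outer membrane isomerase that anchors Bcl2, had 1209, 614, 492, 239 and 709, with sample 1 highest and sample 4 lowest. Dnajc15, an inner membrane protein at the import motor, had 256, 152, 117, 232 and 223, and Dnajc11 of the cristae organising complex was above the median in sample 3 only. Of the mitochondrial import and proteolysis list, 5 of 8 genes were above the limit, among them the protease gene Lonp1 at 441, 757, 394, 533 and 460.4. Of the cytosolic isomerases, Fkbp1a encodes FKBP12, the target of rapamycin and FK506, and had 804, 867, 804, 885 and 535, with sample 5 apart on the low side. Fkbp1b, its relative at ryanodine receptors, had 386, 766, 458, 419.6 and 404, with sample 2 apart on the high side. Fkbp3, a nuclear form, had 382, 584, 652, 563 and 602, with sample 1 apart on the low side. With Cct7, these were 4 of 47 member genes past the filter on signal in which 1 sample lay apart by Dixon's ratio, beside 5.97% of all 4557 named genes past it.

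**Figure D2:**
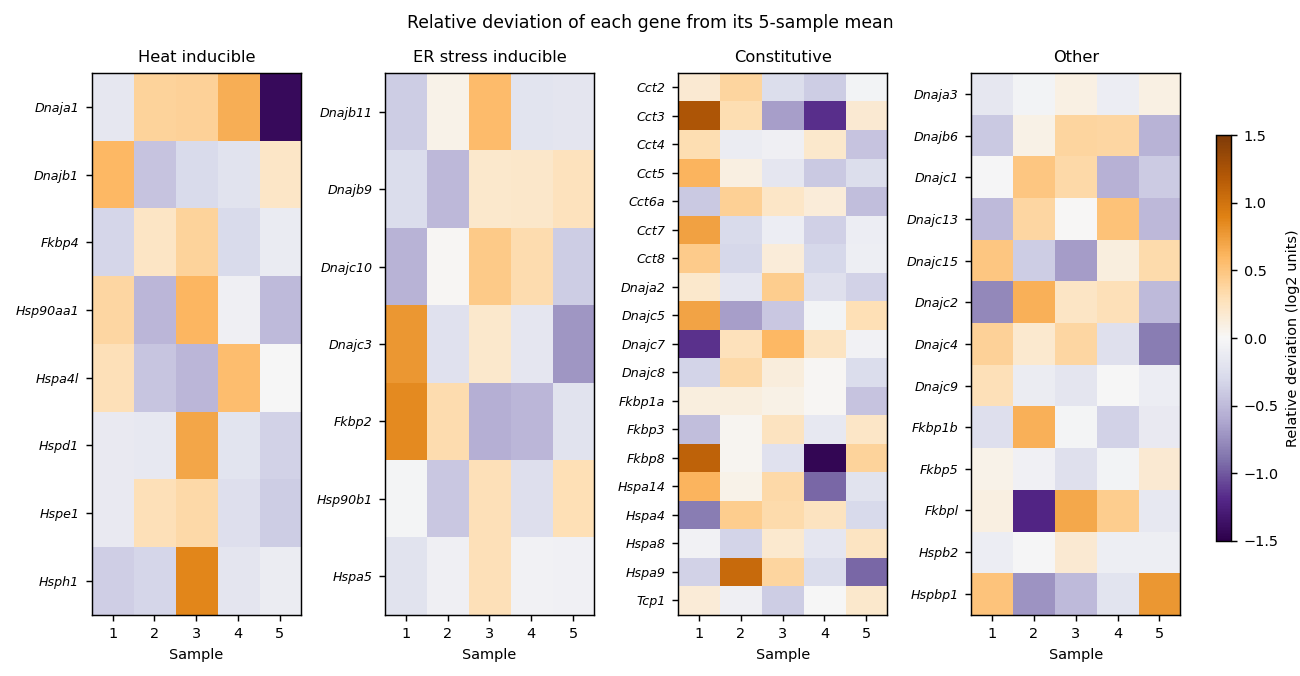
Relative deviation (log2 units, colour) of the 47 member genes past the filter on signal, by gene (rows) and sample (columns), split into heat inducible, ER stress inducible, constitutive and other genes. Orange is higher and purple lower than the gene's mean, after the median of all probe sets in the sample was taken off. In sample 3, 6 of 8 heat inducible and 6 of 7 ER stress inducible genes are higher, while Hspa4l, Dnajb1 and Fkbp2 are lower.

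In sample 3, most inducible members past the filter on signal lay higher than the background of all probe sets in that sample. Of 15 such genes, 12 were higher than it in sample 3. That background is a median, so about as many of all probe sets lie above it as below. Of the 15, 8 had their highest relative deviation there, 5 of 8 heat inducible and 3 of 7 ER stress inducible genes. How often other genes were highest in sample 3 was not counted, so no share can be set beside the 8. The lists were chosen with earlier results of these data known, and the difference from constitutive genes was not tested. The filter on signal, a mean log2 signal above the array median, was passed by 47 of the 67 genes. Over the 8 heat inducible genes past it, the median relative deviation was -0.14, -0.24, 0.40, -0.19 and -0.24. In sample 3, 6 of 8 were higher, led by Hsph1 at 0.87, Hspd1 at 0.70 and Hsp90aa1 at 0.60 log2 units. Of the 4 heat inducible genes that did not pass the filter, 3 were lower in sample 3, Hspa1a at -0.05, Hspa1b at -0.33 and Hspb1 at -0.03, and Dnajb4 was at 0.33. Over the 7 genes induced by ER stress it was -0.21, -0.07, 0.28, -0.17 and -0.18, with 6 of 7 higher in sample 3. Over the 19 constitutive genes it was 0.17, 0.07, 0.12, -0.17 and -0.10, with 11 of 19 higher in sample 3. Over all 47 genes it was -0.01, 0.02, 0.19, -0.15 and -0.13, with 31 of 47 higher in sample 3, 32 of 47 lower in sample 4 and 34 of 47 lower in sample 5. Without the filter on signal, the median over all members in sample 4 turned to 0.03 and that of constitutive genes there to 0.01. By compartment, sample 3 had 0.28 for the ER, 0.22 for mitochondria and 0.13 for cytosol and nucleus. Members are not replicates and share libraries, so these are descriptions with no test.

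Other measures of sample 3 were as follows. The 3' over 5' ratios of the Gapdh and transferrin receptor controls were highest there. Flt3 and Itgam together had summed signals of 1361, 1758, 576, 1611 and 804, lowest in sample 3, although Flt3 alone was lowest in sample 5. The 8 macrophage genes summed to 3225, 4131, 1927, 2534 and 1463, and the 12 neutrophil granule genes to 82439.7, 180706, 135454, 276174 and 178495. Such sums follow their brightest genes, and genes within a list differed. Elane, Prtn3 and Ctsg were highest in sample 1, while S100a8, S100a9, Ngp and Mmp8 were lowest there. Of the macrophage genes, Apoe had 1158, 1109, 83.4, 16.8 and 80.7, while Adgre1 had 478, 522, 454, 506 and 367. Immediate early genes, which mark acute stimulation, had median relative deviations of -0.61, 0.57, -0.52, 0.20 and -0.05 over 11 genes, low in samples 1 and 3. The 10% of all probe sets with the highest mean signal had -0.13, 0.02, 0.02, 0.12 and -0.09. The part of these measures in the chaperone values was not tested.

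**Figure D3:**
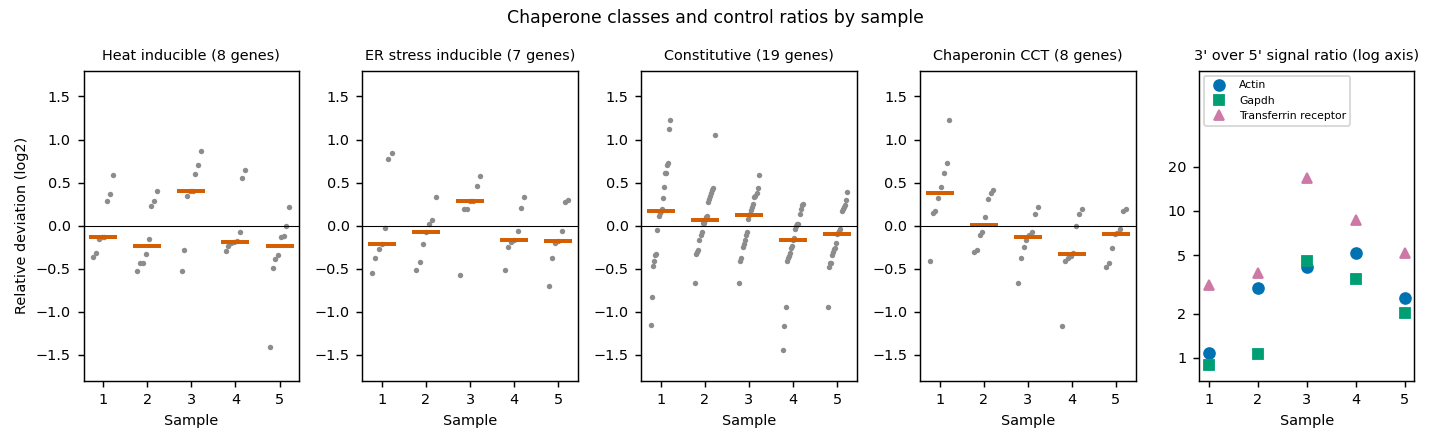
Relative deviation (log2) of each gene (grey points) and its median (orange bars) by sample for 4 gene groups, with 3' over 5' ratios for 3 control transcripts on the right (log axis). The heat inducible median is 0.40 in sample 3 and below 0 in the others. Deviations are taken from a mean that includes sample 3, so a high value there lowers the rest. With sample 3 left out (not drawn), the median was -0.003, -0.02, 0.03 and -0.14 in samples 1, 2, 4 and 5. The CCT median is 0.38 in sample 1, the sample with the lowest control ratios.

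In limma's test of variances, no chaperone gene was called as varying more between samples than other genes, which does not show that samples were alike. The test sets each probe set's variance against the distribution fitted to all 5814 probe sets past the filter, with Benjamini-Hochberg adjustment over them. It called 0 of 61 member probe sets, beside 0 of 5814 in all (0.0%). At an unadjusted p under 0.05 it had 1 of 61 members and 290 of 5814 overall. That member was Dnaja1 (unadjusted p = 0.0410, limma adjusted p = 0.925). The next lowest were Cct3 (limma adjusted p = 0.925), Fkbp8 (limma adjusted p = 0.925), Hspa9 (limma adjusted p = 0.931) and Dnajc7 (limma adjusted p = 0.943). In simulated data of the same size the test called 4 of 200 with a spread 4 times as wide and 148 of 200 with one 8 times as wide, so it misses most smaller excesses. Dnaja1 differed 5.04-fold between samples 4 and 5. The median SD was 0.45 on the log2 scale over 61 member probe sets and 0.47 over all 5814.

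**Figure D4:**
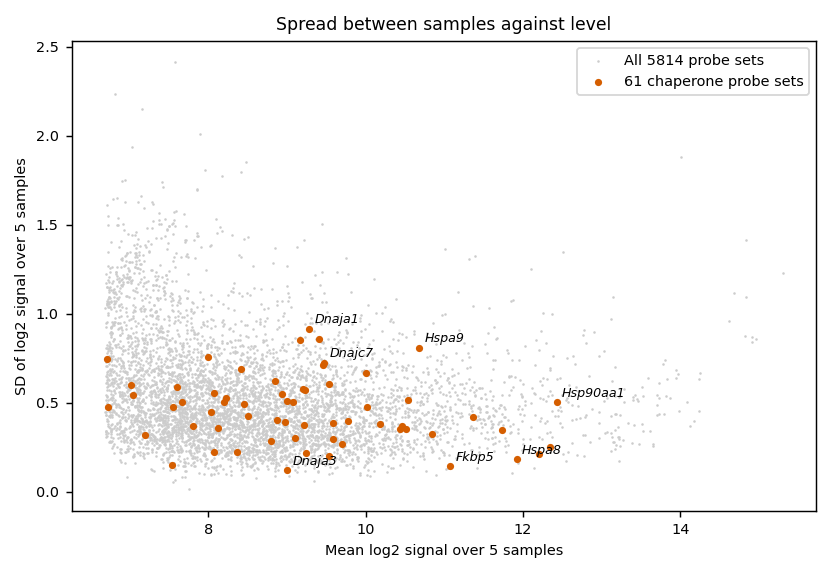
SD of log2 signal over 5 samples against mean log2 signal, for all 5814 probe sets past the filter (grey) and the 61 chaperone probe sets among them (orange). Chaperone SDs run from 0.12 (Dnaja3) to 0.92 (Dnaja1), within the range of other probe sets.

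Several probe sets of a gene did not always give the same picture. Of 18 genes with several probe sets, 9 had some above the limit and some not. Hspd1 had 56.3, 112, 19.8, 258 and 92.3 by its second probe set, above the median in samples 2 and 4, while its first was above it in all. Hsp90aa1 had 76.3, 46.1, 4.30, 43.1 and 4.58 by its second, at or below 76.3 throughout. Both of these were lowest in sample 3, where the first probe sets of the 2 genes were highest. Both carry suffixes that mark a design with fewer or relaxed probes. Counting every design suffix, 23 of 91 member probe sets carry one, and 15 of these were above the limit on all arrays. Among them are the probe sets that stand for Cct3, Cct6a, Dnajc2, Dnajc3, Dnajc8 and Fkbp4. Of the 5 probe sets of Hspa4, 4 were above the limit on all arrays, and sample 1 was lowest by 402, 1053, 928, 999 and 566 and among the higher ones by 655, 689, 391, 397 and 463. By another probe set, Hspa4 had 189, 457, 451, 167 and 169, with samples 2 and 3 apart from the rest. Of 9 genes with several probe sets past the filter on signal, the sample with the highest signal differed between probe sets in 7, namely Cct3, Cct5, Dnajb9, Dnajc2, Dnajc3, Dnajc8 and Fkbp4, and was the same in Dnajb6 and Hspa4. The second probe set of Dnajc8 had 324, 645, 1133, 1010.2 and 723, highest in sample 3. That of Dnajb9 had 206, 97.0, 180.5, 76.2 and 136, lowest in sample 4, where the first was highest. The BiP partner gene Dnajc3 was highest in sample 3 by one further probe set, at 341, 359.6, 479.7, 461 and 229, and in sample 4 by another, at 328, 148, 302, 409 and 240.4. That of Cct5 had 198, 579.5, 546, 247 and 307, lowest in sample 1, where the first was highest. That of Fkbp4 had 543, 245, 608, 368 and 712, lowest in sample 2. Both Dnajb6 probe sets had their highest value in sample 4, the second at 254, 219, 291, 333 and 268.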

How the data were processed

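The authors deposited linear array intensities, and the lowest was 0.1. Image analysis and summary software are not given in the sources used here. After 66 control probe sets were left out, the mean without the outer 2% at each end was 996 in sample 1 and 198 to 199 in the others, so arrays differed in scale as deposited. Arrays were brought to 1 median, 103.4, by a single factor each, and values under the 25th percentile (30.0) were raised to it before log2. Names came from the platform annotation supplied with the series, where 10833 probe sets had 1 symbol, 396 several and 1193 none. The 91 member symbols equalled those of RefSeq (GRCm38.p6). A further 2 probe sets with several symbols including a Dnajc gene were not used. Variance was tested with limma 3.58.1 in R 4.3.3 (robust fit, trend on mean), and procedures were tested on simulated data. Sources of the lists and compartments were textbook knowledge. Members and lists were chosen with earlier results of these data known. Every member gene may be named, with values of every sample for inducible, HSP70, HSP90 and CCT genes, for members with an outlying sample and for the lowest variance p. Genes that are no members come from fixed lists. Other examples were picked for their role. Alternatives were quantile normalization, the values as deposited, other limits, floors and filters, other ways to join probe sets, and each sample left out. The number of arrays limits the precision. Pearson's r between arrays, across 5814 probe sets that are not independent replicates, ran from 0.791 to 0.907.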

Additional observations from a re-analysis of the deposited data

Results flagged for a closer look

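A gap of 1 sample to its nearest neighbour above Dixon's 95% critical share of the whole range of the 5 samples was found for 4 of 47 member genes past the filter on signal, beside 272 of 4557 named genes past it (5.97%), and for 2 of 8 gene groups examined. The groups overlap, share arrays and were chosen with earlier results known, so no chance rate applies to their count. Cct7 was highest in sample 1 with a gap of 0.875 of the range. Fkbp1a was lowest in sample 5 (0.809), Fkbp1b highest in sample 2 (0.749) and Fkbp3 lowest in sample 1 (0.724). The median relative deviation of heat inducible genes was highest in sample 3 with a gap of 0.841, and that of genes induced by ER stress with a gap of 0.720. Both flags depended on the processing. After quantile normalization the heat inducible medians were -0.06, -0.26, 0.39, -0.21 and -0.19. Those of genes induced by ER stress were -0.04, -0.19, 0.29, -0.22 and -0.15. Neither gap then passed the critical share, nor did it without the filter on signal. Sample 3 also had the highest Gapdh and transferrin receptor control ratios, whose part was not tested.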

How the results depend on the processing

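The number of member probe sets above the limit was 34 of 91 (37.4%) at the 75th percentile, beside 17.4% of all probe sets. It was 61 (67.03%) at the 40th percentile, beside 42.9%, and 62 (68.1%) with 3 arrays sufficing, beside 48.9%. With 1 sample left out it ran from 57 to 58, beside 37.5% to 38.3%. The variance test called 0 members under every alternative run, with 0 to 3 at an unadjusted p under 0.05. The median SD was 1.13 in the values as deposited, where sample 1 kept its offset (1.12 over all probe sets), and 0.41 to 0.46 with 1 sample left out. Of 360 recomputed group deviations, 355 moved by less than 1 SD over the samples. The 5 others came from dropping the filter on signal, which adds dim genes: cytosol and nucleus 0.0185 in sample 3 and 0.10 in sample 4, mitochondria -0.36 in sample 5, constitutive genes 0.00784 and all members 0.0260 in sample 4. The 3 values in sample 4 turned from below to above 0. Over all alternatives, 25 of 40 group deviations kept their sign, and those of CCT in samples 3 and 5 were among the 15 that did not. The heat inducible deviation in sample 3 ran from 0.32 to 0.47 over the alternatives, that of genes induced by ER stress from 0.18 to 0.29, and that of CCT in sample 1 from 0.29 to 0.43. Averaging probe sets lowered the mean log2 signal of 14 of 18 genes by over 1 SD. The direction was fixed in advance, because the probe set with the highest mean stands for each gene. No paired analysis was possible because there is 1 group of samples.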
